A study of Homo sapiens with 8 samples.

Results

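Open chromatin was examined at 8 genes of cholesterol supply in NCI-H295R cells, a human line established from an adrenocortical carcinoma. The 8 genes, of 19974 protein-coding genes on chromosomes 1 to 22 and X, were SCARB1, SOAT1, NPC1, HMGCS1, SQLE, LSS, DHCR7 and INSIG1. They were taken by name, for their roles in uptake, storage and synthesis of cholesterol. A peak was counted at one of these genes when its summit lay inside the gene, or within 100 kb of it with no other protein-coding gene nearer. ATAC-seq, which marks open DNA by the insertion of adapters by the transposase Tn5, was run on 8 libraries in 4 groups of 2. Vehicle cells received DMSO for 96 h. EZH2i cells received the EZH2 inhibitor EPZ-6438 at 62 µM for 96 h, and CBPi cells the CBP inhibitor PRI-724 at 26 µM for 96 h. FSK cells had 48 h of DMSO and then 48 h of 10 µM forskolin, so its drug exposure was shorter than that of the other drug groups. EZH2 is the methyltransferase of Polycomb repressive complex 2, CBP is a transcriptional coactivator, and forskolin activates adenylyl cyclase and so raises cAMP.

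Adrenocortical cells make steroids from cholesterol, which they take up from lipoproteins, release from lysosomes, store as esters in lipid droplets or synthesise from acetyl-CoA. When sterols in the endoplasmic reticulum are low, SREBP transcription factors are released to activate genes of synthesis and uptake. When sterols are high, INSIG proteins hold the SREBP escort SCAP in the endoplasmic reticulum. In the adrenal cortex, ACTH acts through cAMP to mobilise stored cholesterol for steroid synthesis.

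Each group was represented by 1 peak list, so no value has a spread between libraries, no test between groups could be made, and the number of reads behind each list is unknown. There were 61016 peaks in the vehicle list, 41086 in the EZH2i list, 47161 in the CBPi list and 51095 in the FSK list. Gene-start peaks, those reaching within 1 kb of an annotated gene start, were present in the vehicle list at 8 of 12 adrenocortical marker genes, and absent at CYP21A2, HSD3B2, MRAP and SULT2A1. The same list had them at 2 of 7 fibroblast, 1 of 6 endothelial, 0 of 6 immune and 2 of 6 chromaffin markers. Over all 19974 protein-coding genes 65.8% had a gene-start peak in that list, so the adrenocortical count was near the share over all genes.

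The promoters of the genes on the synthesis and feedback side are shown first, because their gene-start peaks include the largest and widest of the set. RefSeq promoters (GRCh38.p14, windows of 300 bases that reach 50 bases past a start) were found for SOAT1, NPC1, HMGCS1, LSS, DHCR7 and INSIG1, 6 of the 8 genes. SCARB1 and SQLE had no entry, and HMGCS1 and DHCR7 each had a second entry, searched but not shown. The INSIG1 promoter lies at chr7:155297628-155297927 on the plus strand. On the minus strand lie those of HMGCS1 at chr5:43313363-43313662, LSS at chr21:46228725-46229024 and DHCR7 at chr11:71448344-71448643. Capitals mark NF-Y boxes, searched as CCAAT on both strands, and in INSIG1 also a cAMP response element core, searched as TGACGT on both strands and present there as its reverse complement.
INSIG1: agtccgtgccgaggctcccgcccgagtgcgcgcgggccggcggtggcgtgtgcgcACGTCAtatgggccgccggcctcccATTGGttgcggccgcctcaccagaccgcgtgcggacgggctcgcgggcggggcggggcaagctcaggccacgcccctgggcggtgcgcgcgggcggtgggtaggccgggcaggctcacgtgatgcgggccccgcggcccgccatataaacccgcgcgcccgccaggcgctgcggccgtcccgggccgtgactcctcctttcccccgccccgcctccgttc
HMGCS1: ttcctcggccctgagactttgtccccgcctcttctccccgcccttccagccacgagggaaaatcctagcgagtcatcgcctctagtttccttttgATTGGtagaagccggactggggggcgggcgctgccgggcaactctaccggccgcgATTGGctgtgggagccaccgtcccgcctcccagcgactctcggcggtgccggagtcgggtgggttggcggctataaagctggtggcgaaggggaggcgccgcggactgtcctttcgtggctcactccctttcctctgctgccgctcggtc
LSS: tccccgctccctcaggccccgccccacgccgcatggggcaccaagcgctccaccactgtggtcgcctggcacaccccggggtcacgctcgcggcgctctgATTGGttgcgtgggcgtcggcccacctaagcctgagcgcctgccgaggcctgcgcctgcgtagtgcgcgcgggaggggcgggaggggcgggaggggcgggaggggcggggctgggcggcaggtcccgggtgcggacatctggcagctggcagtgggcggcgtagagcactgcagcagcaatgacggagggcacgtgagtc
DHCR7: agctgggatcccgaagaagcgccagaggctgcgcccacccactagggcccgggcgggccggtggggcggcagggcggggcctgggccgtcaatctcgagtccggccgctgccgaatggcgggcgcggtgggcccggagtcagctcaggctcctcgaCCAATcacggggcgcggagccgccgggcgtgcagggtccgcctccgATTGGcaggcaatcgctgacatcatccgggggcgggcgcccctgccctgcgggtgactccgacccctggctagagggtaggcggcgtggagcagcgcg

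Each of these 4 promoters lay wholly within a peak in all 4 lists, as did those of SOAT1 and NPC1 and the second HMGCS1 entry. The second DHCR7 entry, whose start at 71449043 is the one used for its gene-start peak, was covered only in part. Peaks covered 156 of its 300 bases with vehicle, 191 with EZH2i, 133 with CBPi and 198 with FSK. It held no match to any motif searched. The NF-Y box, which binds a factor that acts together with SREBP at many sterol-regulated promoters, was found in 5 of the 6 genes. NPC1 had none. Counted by promoter entry, it was in 5 of the 8 entries of these genes and in 34.6% of all 35116 promoters in the table. HMGCS1 held matches beginning 155 and 100 bases before its start, and DHCR7 held matches beginning 94 and 48 bases before the start of the entry shown. The GC box GGGCGG, a site of SP-family factors, occurred in all 6 genes. It was in 7 of their 8 entries and in 45.0% of all promoters. The cAMP response element core was found only in INSIG1 among the 6, in 1 of the 8 entries, and in 7.98% of all promoters. The sterol regulatory element, searched as TCACNCCAC, the SF1 site AAGGTCA and the AP-1 site TGANTCA had no match in these windows. Those 3 motifs occurred in 1.13%, 3.92% and 7.71% of all promoters. A match describes letters in the window and not binding. A missing match covers only the exact letters searched in these windows, and does not show that a gene lacks such an element.

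All 8 genes carried a gene-start peak in all 4 lists. Over all protein-coding genes the share with a gene-start peak was 65.8% in the vehicle list, 63.7% with EZH2i, 65.6% with CBPi and 63.7% with FSK. For SCARB1 and SQLE, whose strand was not in the tables used, either gene end counted as a start. INSIG1 had the gene-start peak of largest area among the 8 genes in the vehicle list, 2893 bp wide, being outranked by 0.241% of that list. Area here is the significance that the peak caller summed along the peak. The INSIG1 peak spanned 2495 bp with EZH2i, 2742 bp with CBPi and 2912 bp with FSK. Thus the peak was narrowest with EZH2i and close to its vehicle width with FSK. Its summit lay 1186 bp after the start in the vehicle list, 1163 bp with EZH2i and 1194 bp with FSK, and at -184 bp, before the start, with CBPi.

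HMGCS1, the cytosolic HMG-CoA synthase of the mevalonate pathway, had a gene-start peak of 2275 bp in the vehicle list, 2216 bp with EZH2i, 2222 bp with CBPi and 2055 bp with FSK. Its area was exceeded by 0.388% of vehicle peaks, and by 0.424%, 0.685% and 0.654% of peaks in the EZH2i, CBPi and FSK lists. The HMGCS1 promoter was therefore near the top of every list. LSS, which cyclises squalene epoxide to lanosterol, had the widest gene-start peak of the 8 genes in the vehicle list, at 3021 bp, and 2950 bp with CBPi. In the EZH2i and FSK lists it was split into 2 peaks, with summed widths of 2238 bp and 2401 bp. SQLE, the squalene epoxidase, had a single peak in each list, 1194 bp wide with vehicle, 1163 bp with EZH2i, 1210 bp with CBPi and 1241 bp with FSK. It lay on chromosome 8 at 124997830 to 124999023 in the vehicle list, and no other peak was assigned to SQLE in any list.

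DHCR7, which makes cholesterol from 7-dehydrocholesterol in the last step of the Kandutsch-Russell pathway, had gene-start widths of 1392 bp with vehicle, 1420 bp with EZH2i, 1395 bp with CBPi and 1429 bp with FSK. NPC1, the lysosomal cholesterol exporter, had 1145, 1163, 1145 and 1110 bp in the same order. Both were nearly constant in width. SOAT1, the enzyme that esterifies cholesterol for storage, had 963 bp with vehicle, 839 bp with EZH2i, 958 bp with CBPi and 618 bp with FSK, and was thus narrowest with FSK. SCARB1, the HDL receptor that takes up cholesteryl esters, had 1797, 1701, 1869 and 1489 bp at its upper end (chromosome 12, 124862756 to 124864552 in the vehicle list), with FSK again the narrowest. Near the lower end of SCARB1, FSK also had a peak of 1096 bp that reached within 1 kb of that end, where the vehicle peak of 650 bp did not. Width depends on read depth as well as on the chromatin, and the part of depth in these differences was not tested. Over all genes, 67.0% of FSK peaks matched 1 to 1 with a vehicle peak were narrower than it, and the median ratio at gene starts was 0.941.

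**Figure D1:**
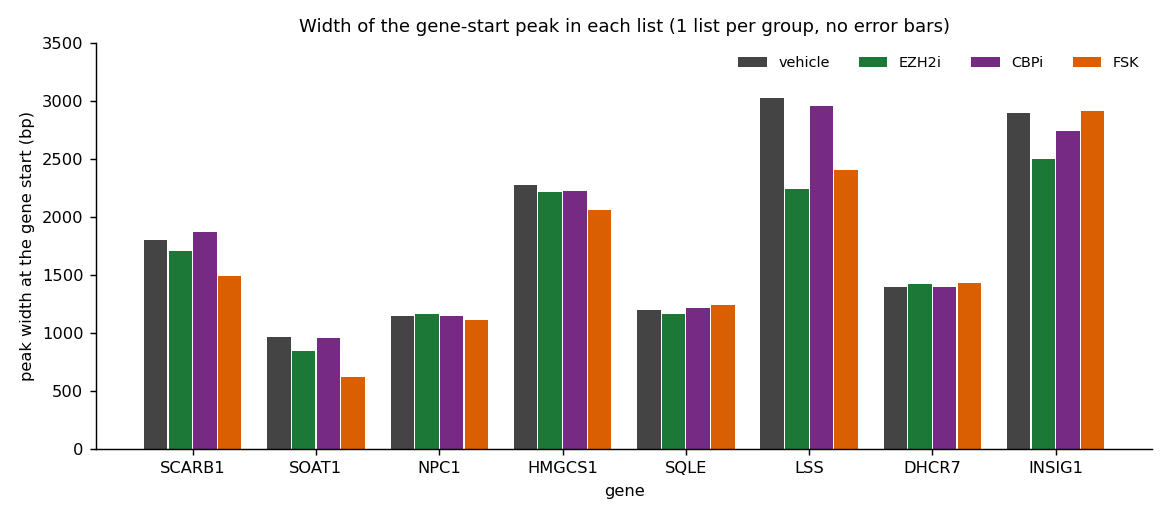
Bars give the width in bp of the gene-start peak of each gene (summed over 2 peaks for LSS with EZH2i and FSK) in the vehicle, EZH2i, CBPi and FSK lists, with 1 list per group and hence no error bars. LSS, INSIG1 and HMGCS1 have the widest peaks, and the FSK peaks of SOAT1 (618 bp) and SCARB1 (1489 bp) are narrower than those of vehicle (963 and 1797 bp).

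Beyond gene starts the peaks were unevenly spread over the genes. The vehicle list held 54 peaks at the 8 genes, of 51388 assigned to protein-coding genes, and SCARB1 with 23 and INSIG1 with 14 held 37 of them. Of the other genes, DHCR7 had 5, LSS 4, NPC1 3, SOAT1 and HMGCS1 2 each and SQLE 1. The EZH2i list held 34 peaks at these genes, the CBPi list 48 and the FSK list 49. Of the 16 SCARB1 vehicle peaks with a summit inside the gene, the largest was 1672 bp wide (chromosome 12, 124837753 to 124839480 over all lists). At INSIG1 only the gene-start peak had its summit inside the gene. The other 13 were spread on both sides of a gene whose nearest protein-coding neighbours lie 210486 bp (HTR5A) and 147894 bp (EN2) away.

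**Figure D2:**
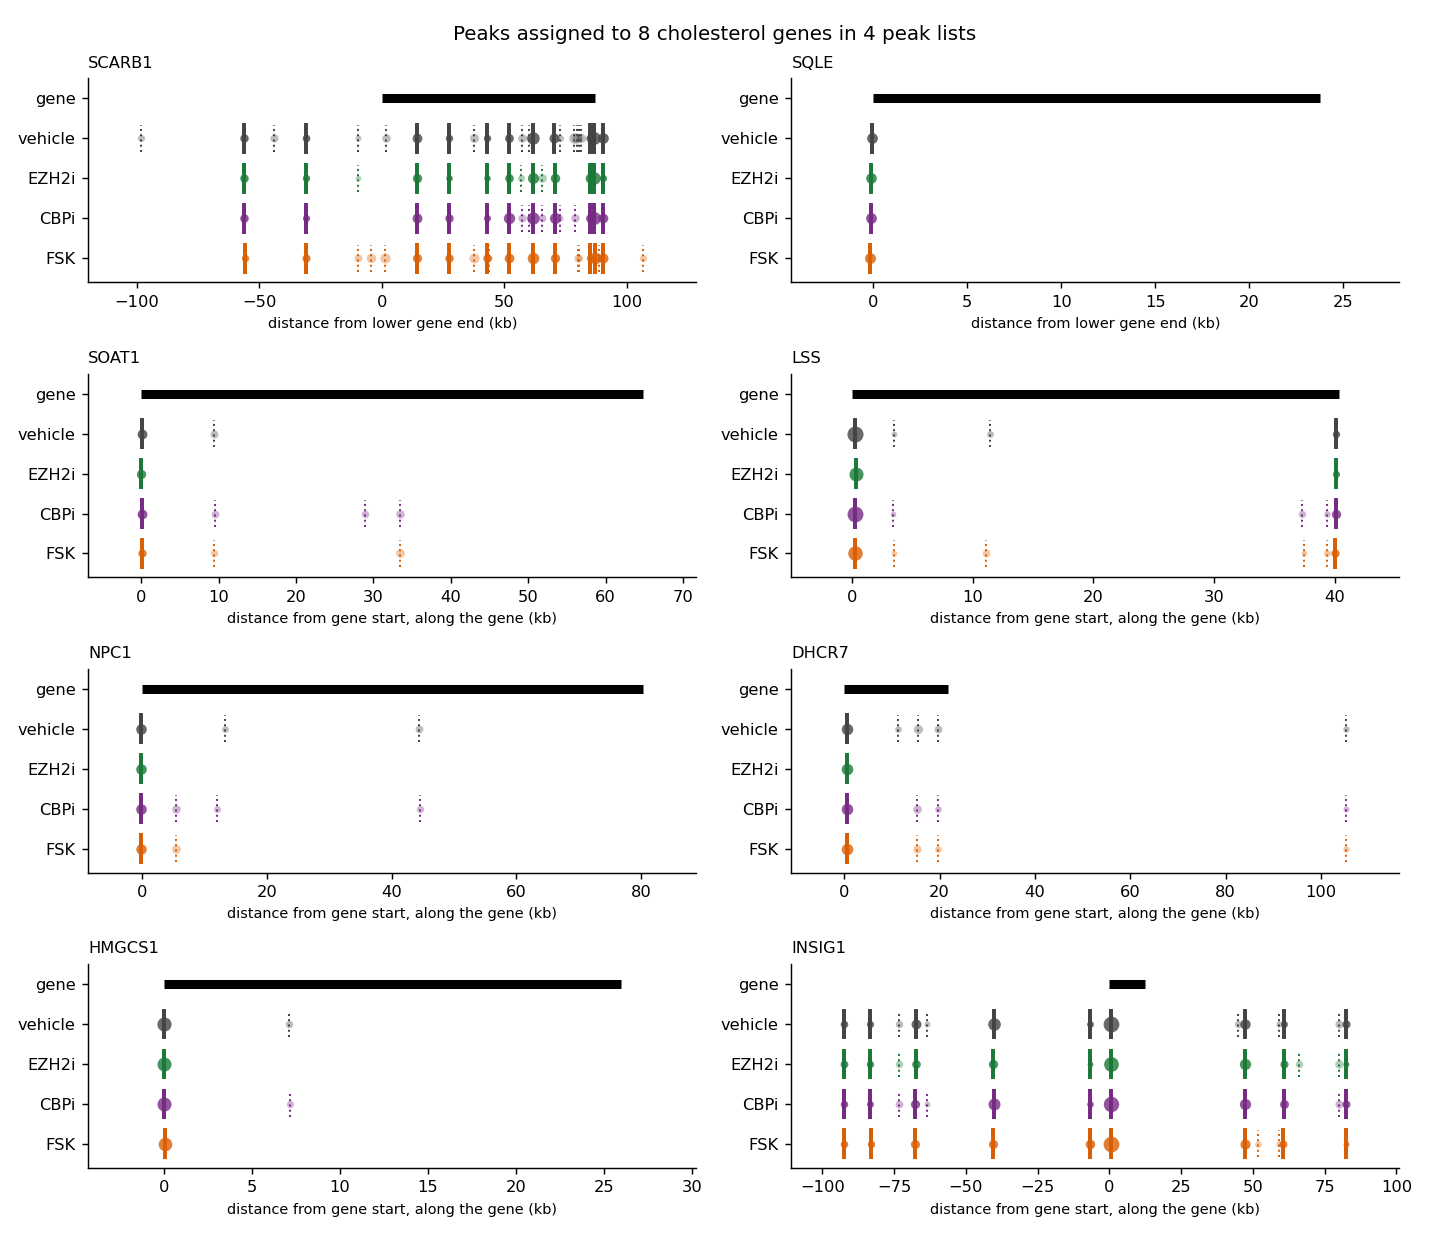
Each panel shows 1 gene as a black bar and its peaks in the 4 lists at their distance in kb from the gene start (from the lower gene end for SCARB1 and SQLE). Solid marks are regions with a peak in all 4 lists, dotted marks regions missing from at least 1, and the dot grows with peak width. The EZH2i rows of SOAT1, NPC1, HMGCS1 and DHCR7 hold the gene-start peak alone.

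A vehicle peak counted as kept if any peak of the drug's list overlapped it by 1 bp or more, and as lost if none did. Peaks of a drug's list that overlapped no vehicle peak counted as gained. These words describe the lists, since a peak can leave a list by passing under the caller's threshold. All 8 gene-start peaks were kept with each drug, so every loss lay elsewhere in or near the genes.

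Of the 54 vehicle peaks 23 were lost with EZH2i (42.6%, Wilson 95% interval 30.3 to 55.8), against 35.2% of all vehicle peaks assigned to protein-coding genes. With CBPi 13 were lost (24.1%, 14.6 to 36.9), against 26.3%, and with FSK 15 (27.8%, 17.6 to 40.9), against 29.1%. The share over all genes thus lay within the interval of the 8 genes for each drug. The EZH2i list was the shortest of the 4, and its larger loss was not seen against FSK at equal length. With every list limited to its 41086 peaks of largest area, 10 of 38 vehicle peaks were lost with EZH2i and 10 with FSK (26.3% each), and 5 with CBPi (13.2%). The shares over all genes were then 15.8% with EZH2i, 19.7% with FSK and 14.6% with CBPi. Weighted to the vehicle area deciles of the 54 peaks, the loss over all genes was 34.7% with EZH2i, 25.8% with CBPi and 28.6% with FSK. Outside gene starts, 23 of 46 peaks were lost with EZH2i (50.0%, 36.1 to 63.9), 13 with CBPi (28.3%, 17.3 to 42.5) and 15 with FSK (32.6%, 20.9 to 47.0), and the shares over all genes were 44.4%, 33.9% and 36.3%.

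Most of the peaks lost with EZH2i lay inside the genes. Counting only peaks with a summit inside a gene and outside gene starts, a selection made after the values were seen, 17 of 26 were lost with EZH2i (65.4%, 46.2 to 80.6), 8 with CBPi (30.8%, 16.5 to 50.0) and 9 with FSK (34.6%, 19.4 to 53.8). The corresponding shares over all genes were 45.5%, 34.5% and 36.8%. Weighted to the same area deciles, the shares over all genes were 46.6%, 35.3% and 37.6%. With EZH2i the unweighted share over all genes lay just under the lower bound for the 8 genes and the weighted share just above it, so the difference stood at the edge of counting error, and it was not tested between groups. With lists of equal length, 8 of 17 such peaks were lost with EZH2i (47.1%), 3 with CBPi (17.6%) and 5 with FSK (29.4%), against 23.8%, 21.6% and 27.9% over all genes. As a share kept, the EZH2i value was 52.9% (31.0 to 73.8), and the share over all genes lay just outside this interval. In the lists as deposited, SCARB1 lost 8 of its 16 such peaks with EZH2i, 5 with CBPi and 5 with FSK. SOAT1, NPC1, HMGCS1, LSS and DHCR7 together lost 9 of 10 with EZH2i, 3 with CBPi and 4 with FSK. Intervals cover counting error only and treat peaks as independent.

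**Figure D3:**
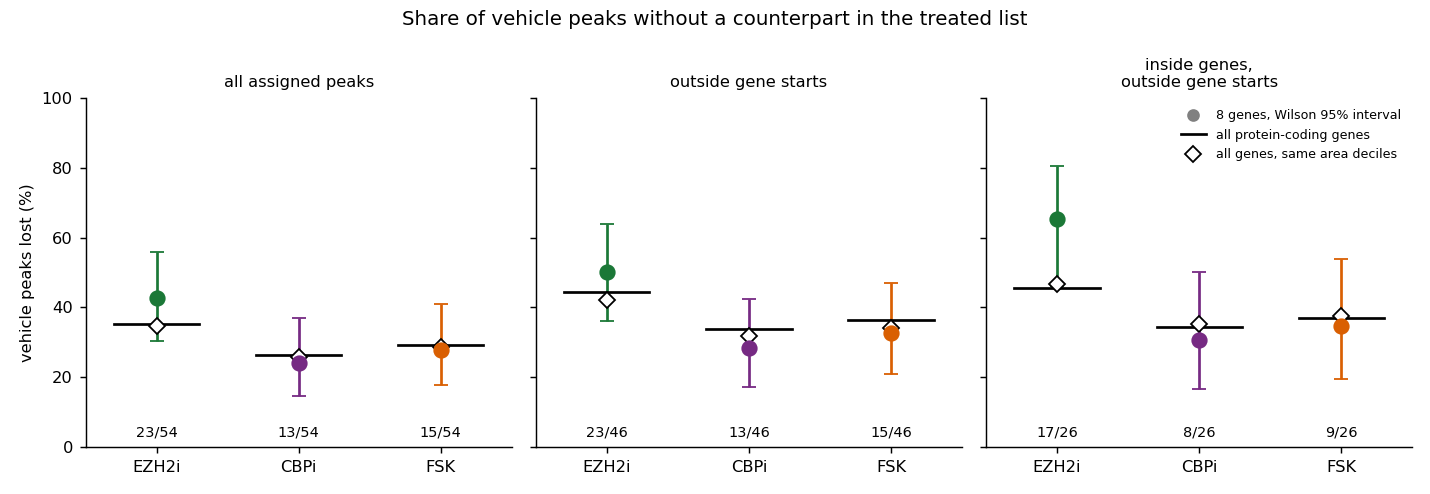
Points give the percentage of vehicle peaks at the 8 genes that had no counterpart in the EZH2i, CBPi or FSK list, with Wilson 95% intervals and the counts below. Black lines give the share over all protein-coding genes and diamonds that share at the area deciles of the 8 genes' peaks. With EZH2i inside gene bodies the point (65.4%) stands above the line (45.5%), which lies at the lower end of the interval, and elsewhere the lines lie within the intervals.

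By gene, DHCR7 lost 4 of 5 peaks with EZH2i, and 1 each with CBPi and FSK. Its 3 lost peaks inside the gene were 360 to 820 bp wide in the vehicle list, and the fourth lay 83627 bp downstream. The CBPi and FSK lists kept 3 of these 4, at chromosome 11, 71433212 to 71434039, 71429117 to 71429672 and 71343538 to 71343869 over all lists. The peak at 71437488 to 71437847 was in the vehicle list only. NPC1, whose gene overlaps RMC1, lost 2 of 3 peaks with EZH2i, 1 with CBPi and 2 with FSK. HMGCS1 lost its intragenic peak (482 bp, chromosome 5, 43306041 to 43306522 in the vehicle list) with EZH2i and FSK and kept it with CBPi. SOAT1 lost its intragenic peak only with EZH2i. This 556 bp peak, at chromosome 1, 179302980 to 179303535, was the lost peak of largest area among the 8 genes, and 39.7% of vehicle peaks had a larger area.

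Of the 7 genes with 2 or more vehicle peaks, 4 (SOAT1, NPC1, HMGCS1 and DHCR7) had exactly 1 peak in the EZH2i list, 0 in the CBPi list and 1 (HMGCS1) in the FSK list. Of 10092 protein-coding genes with 2 or more vehicle peaks, 22.5% had exactly 1 with EZH2i, 13.5% with CBPi and 15.9% with FSK. LSS lost 2 of 4 peaks with EZH2i, 1 with CBPi and 0 with FSK. The 4 synthesis genes together lost 7 of 12 peaks with EZH2i, 2 with CBPi and 2 with FSK, beside the 35.2%, 26.3% and 29.1% over all genes. The 17 further synthesis genes of the pathway lost 3, 2 and 2 of 22 (13.6%, 9.09% and 9.09%), a smaller share than over all genes with each drug. Of these 17 genes 15 had a gene-start peak in the vehicle list. Over all genes, peaks outside gene starts were lost more often (44.4%, 33.9% and 36.3%) than all peaks. The 22 peaks were not split by type, so the 2 shares are not like for like.

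**Figure D4:**
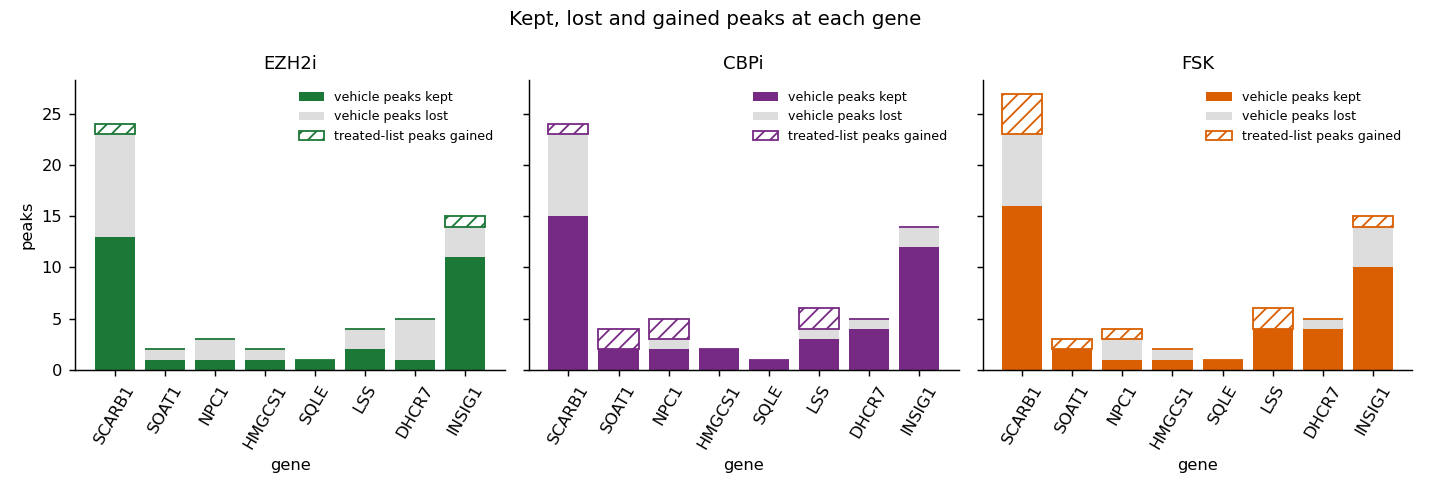
Stacked bars give, for each gene and drug, the vehicle peaks kept (solid), the vehicle peaks lost (grey) and the treated-list peaks gained (hatched, above the vehicle total). DHCR7 keeps 1 of 5 peaks with EZH2i and 4 of 5 with each other drug, and SCARB1 gains 4 peaks with FSK.

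SCARB1 lost 10 of 23 peaks with EZH2i, 8 with CBPi and 7 with FSK, and 3 of its peaks were lost with all 3 drugs. One of these, 595 bp wide and 43712 bp below the lower end (chromosome 12, 124732697 to 124733291), was the only vehicle peak of the larger-area 50% lost with all 3 drugs at these genes. A 657 bp peak inside SCARB1 (124833612 to 124834268) was lost with FSK alone. A run of 5 vehicle peaks inside SCARB1, from 124849359 to 124858532, was absent with EZH2i, while CBPi and FSK each kept 2 of the 5. INSIG1 lost 3 of 14 peaks with EZH2i, 2 with CBPi and 4 with FSK. The INSIG1 peak 73184 bp upstream (chromosome 7, 155224414 to 155224888) was lost with FSK alone.

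Lost peaks were mostly of small area. The median vehicle area was 374.1 for peaks lost with EZH2i and 1321.0 for those kept, 290.4 and 785.5 with CBPi, and 374.1 and 880.1 with FSK. Of the 28 peaks in the larger-area 50% of the vehicle list, 2 were lost with EZH2i, 1 with CBPi and 3 with FSK, and of the other 26, 21, 12 and 12. Losses over all genes were not split by area in this way, so the tie between small area and loss is not shown to be particular to these genes. Across the drugs 27 of the 54 peaks were kept with all 3 (50.0%), against 56.1% over all genes, and 6 were lost with all 3 (11.1%), against 16.3%. Another 6 (11.1%) were lost with both inhibitors and kept with FSK, against 6.41%, and 6 (11.1%) were lost with EZH2i and FSK and kept with CBPi, against 6.25%. None was lost with CBPi and FSK and kept with EZH2i, a pattern that 1.41% of all assigned peaks had.

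Gains were few and small. With EZH2i 2 of 34 peaks were gained (5.88%, 1.63 to 19.1), against 6.5% over all genes, with CBPi 7 of 48 (14.6%, 7.25 to 27.2), against 10.9%, and with FSK 9 of 49 (18.4%, 9.98 to 31.4), against 14.5%. Each background lay within the interval. None of the gained peaks was in the larger-area 50% of its list, and none reached a gene start. SCARB1 gained 4 peaks with FSK, the widest of 863 bp and 4353 bp below the lower gene end (chromosome 12, 124771941 to 124772803), and no other list had a peak at any of the 4. Inside SCARB1 a peak absent with vehicle was present with both inhibitors, 690 bp wide with EZH2i (124841963 to 124842652) and 523 bp with CBPi.

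Several gained peaks recurred between CBPi and FSK. Inside SOAT1 a peak at chromosome 1, 179326835 to 179327533 over all lists, was 663 bp wide with CBPi and 699 bp with FSK. NPC1 had one of 675 and 725 bp in the part of the gene near its start (chromosome 18, 23580613 to 23581378). LSS had a pair near its 3′ end, at chromosome 21, 46189208 to 46189577 and 46191238 to 46191691. None of these 4 regions had a peak with vehicle or EZH2i. The CBPi and FSK comparisons share the vehicle list, so a region just under the threshold there counts as gained in both.

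Areas depend on depth and were not compared between lists, and ranks in lists of different length show no change. Ranks were therefore taken among the 31427 merged regions with a peak in all 4 lists, 27 of them at the 8 genes. A rank is given as the percentage of these shared regions with a larger area in the same list, so a low value means a large peak. Gene-start regions moved by at most 7.71 points. INSIG1 stood at 0.484% with vehicle, 0.821% with EZH2i, 0.821% with CBPi and 0.913% with FSK. Those of HMGCS1 were 0.811%, 0.595%, 1.1% and 1.14%, and those of SQLE 8.96%, 9.58%, 9.47% and 11.1%. For SOAT1 the values were 20.0%, 18.9%, 20.7% and 27.7%, which is that shift, with FSK.

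The largest shift was at a region 6590 bp upstream of INSIG1 (chromosome 7, 155290879 to 155291761), the gene whose product restrains SREBP. The peak there was 364 bp wide with vehicle, 229 bp with EZH2i, 332 bp with CBPi and 883 bp with FSK. Its rank was 96.8% with vehicle, 98.0% with EZH2i, 81.1% with CBPi and 32.4% with FSK. The region was thus among the smallest shared regions with vehicle and EZH2i, and among the larger 50% of them with FSK. The shift with FSK was -64.4 points, and 0.0781% of 28183 shared regions assigned to protein-coding genes had a lower one. Its width ratio of 2.43 was exceeded by 0.632% of them. These positions describe 2 lists and are not a test. The peak was the shared region chosen for the size of its shift, after the values were seen.

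Other shifts were smaller. A second INSIG1 region, 48304 bp downstream (chromosome 7, 155358197 to 155358973), was 384 bp wide with vehicle, 594 bp with EZH2i, 752 bp with CBPi and 547 bp with FSK, and its rank was 95.7%, 78.9%, 71.0% and 73.9%. It stood higher in each treated list than in the vehicle list. Of the 28183 shared regions assigned to protein-coding genes, 6.6% had a lower shift with EZH2i, 4.1% with CBPi and 5.39% with FSK. The INSIG1 region 40199 bp upstream (155256765 to 155258491) did the reverse, with ranks of 25.1%, 36.3%, 36.1% and 41.6% and widths of 1727, 810, 1537 and 783 bp. Its peak was less than 50% as wide with EZH2i and FSK as with vehicle. A lower shift than at this region was seen in 88.5% of the 28183 regions with EZH2i, 86.4% with CBPi and 91.5% with FSK. Shifts of that size were therefore not rare over all genes.

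At SCARB1, a region inside the gene (chromosome 12, 124819523 to 124820191) had ranks of 46.1% with vehicle, 75.4% with EZH2i, 68.8% with CBPi and 42.9% with FSK. It stood lower with both inhibitors and not with FSK. Of the 28183 shared regions assigned to protein-coding genes, 98.2% had a lower shift with EZH2i, 96.1% with CBPi and 29.5% with FSK. A region 3154 bp above the upper end (124866637 to 124867804) was 1168 bp wide with vehicle, 438 bp with EZH2i, 908 bp with CBPi and 990 bp with FSK, with ranks of 25.8%, 47.5%, 38.9% and 26.5%. Another region inside the gene, at 124828279 to 124829618, stood higher with CBPi, with ranks of 65.5%, 47.6%, 37.8% and 59.1% and widths of 728, 695, 1340 and 924 bp. Of the SCARB1 regions, 2 inside the gene stood lower mainly with FSK. That at 124790754 to 124791741 had ranks of 28.6%, 29.2%, 32.2% and 52.5% and widths of 939, 825, 979 and 775 bp. That at 124861397 to 124862467 had ranks of 51.6%, 47.0%, 52.1% and 74.1% and widths of 619, 949, 744 and 439 bp. With FSK, 96.1% and 95.5% of the 28183 regions had a lower shift than these 2. For the region above the upper end the shares with a lower shift were 96.0% with EZH2i, 89.1% with CBPi and 52.6% with FSK. For the region that stood higher with CBPi they were 5.97%, 2.97% and 20.7%. These shares place the regions among all others and are not a test.

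**Figure D5:**
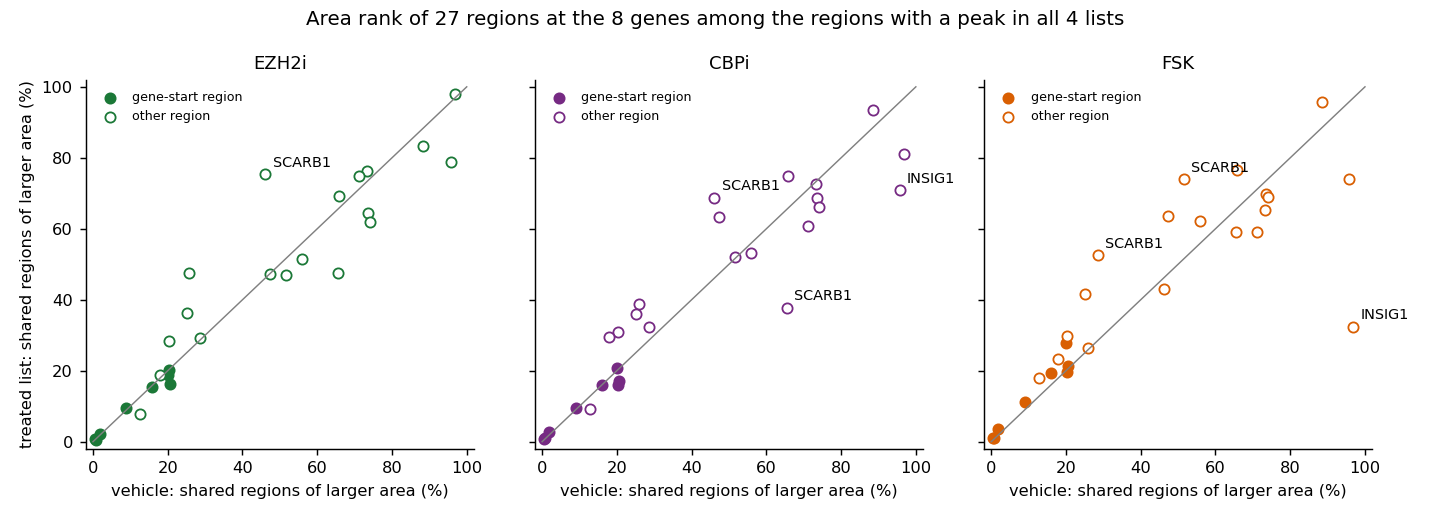
Each point is 1 of 27 regions at the 8 genes, placed by the percentage of shared regions of larger area in the vehicle list (x axis) and in the EZH2i, CBPi or FSK list (y axis). Filled points are gene starts, the line marks equal rank, and the largest shifts are named. Gene-start regions lie near the line, and the INSIG1 region 6590 bp upstream lies far below it with FSK (96.8% to 32.4%).

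Over all 27 regions, the median shift was -0.156 points with EZH2i, 0.337 with CBPi and 1.76 with FSK. Widths of kept peaks that matched 1 to 1 had a median ratio to vehicle of 0.913 with EZH2i (30 pairs), 0.959 with CBPi (41) and 0.978 with FSK (38). The medians over all genes were 0.894, 0.975 and 0.926. With EZH2i 20 of the 30 were narrower than in the vehicle list, and 74.9% of all pairs were.

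The rest of the pathway was read from role lists of 53 further genes. Gene-start peaks were present at 42 of them in the vehicle list and at 41 in each treated list. The exception was PLIN2, the lipid droplet coat protein, whose gene-start peak was in the vehicle list alone. Of 17 further synthesis genes 15 had a gene-start peak in every list.

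The 9 further genes of uptake lost 14 of 32 peaks with EZH2i, 9 with CBPi and 11 with FSK. The 10 of lysosomal release and transport lost 27, 13 and 23 of 67. At GRAMD1B, which moves cholesterol from the plasma membrane to the endoplasmic reticulum, 11 of 23 were lost with EZH2i, 8 with CBPi and 8 with FSK, and 2, 3 and 7 were gained. The 4 further storage genes lost 12 of 21 peaks with EZH2i, 6 with CBPi and 6 with FSK. Most of these losses were at NCEH1, a cholesteryl ester hydrolase, where 10 of 14 peaks were lost with EZH2i, 5 with CBPi and 5 with FSK. LIPE lost 0 of 4 peaks with each drug. The 8 sensing and SREBP genes lost 12, 6 and 7 of 34, and all 8 had a gene-start peak in every list. The 5 efflux genes lost 11, 9 and 8 of 28, most of them at ABCA1 (9, 8 and 6 of 19). Over all 53 genes 38.7% of 204 vehicle peaks were lost with EZH2i, 22.1% with CBPi and 27.9% with FSK, beside 35.2%, 26.3% and 29.1% over all protein-coding genes. Gained were 5 of 130 peaks with EZH2i (3.85%), 19 of 178 with CBPi (10.7%) and 19 of 166 with FSK (11.4%), beside 6.5%, 10.9% and 14.5%.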

How the data were processed

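The 8 ATAC-seq libraries were deposited as 4 peak lists, 1 per group of 2 libraries. Per the submitters' processing notes the build is hg38 and the tools include Bowtie2, Genrich and deepTools 2.0. Not given in the sources used here were the way libraries were combined, read filters, any Tn5 shift and the calling threshold. Each list deposited by the authors holds peak borders, a summit, a score, a signal, the peak area of Genrich (smallest value 200.0), and the −log10 of the summit p-value. The deposited score and −log10 p were not analysed. From these, presence, width and rank were computed with Python 3.11.15 and pandas 2.3.3. Kept peaks needed an overlap of 1 bp, the distance limit was 100 kb and gene starts reached 1 kb to either side. Gene positions, promoters and strand came from RefSeq GRCh38.p14, whose primary coordinates are those of hg38. Exon and intron annotation was not used. The functions were tested on simulated data. Depth is unknown, and with 1 list per group no p-value was computed. The members and lists were chosen with earlier results of these data known. By rule all 8 genes were described, with their gene-start peaks, their largest peak and lost or gained peaks of the larger-area 50%, and up to 4 pathway genes per drug. Alternatives changed the overlap, the list length, the area threshold, the assignment, the start window and the rank.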

Additional observations from a re-analysis of the deposited data

How the results depend on the processing

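Of 91 recomputed values, 84 stayed within the 95% interval of the reported value or, for counts, within 1.5 times of it. The INSIG1 rank shift has no interval, and it was counted as unchanged if it kept its sign and more than 50% of its size. With every list limited to its 41086 peaks of largest area, the share of the 8 genes' vehicle peaks kept was 73.7% with EZH2i, against 57.4%, and 86.8% with CBPi, against 75.9%. With FSK it was 73.7%, against 72.2%, so at equal length the EZH2i share was no longer below that of FSK. With all lists limited to their larger-area 50%, 4.0% of FSK peaks were gained, against 18.4%. Counting summits inside the genes alone, 41.4% were kept with EZH2i. Without gene starts, a choice made after seeing the data, 34.6% were kept with EZH2i and 28.0% of CBPi peaks were gained. The same peaks in lists of equal length, also chosen after seeing the data, were kept at 52.9% with EZH2i, 82.4% with CBPi and 70.6% with FSK. The median vehicle rank of the 27 shared regions was 28.6%, and 14.6% when ranked within the whole list. The INSIG1 upstream region shifted by -53.9 points with FSK in whole-list ranks and by -56.9 points by area per bp. All 8 genes kept a gene-start peak in every list under each alternative tried for it. Leaving out single libraries was not possible because each list stands for both. No paired analysis was possible because the lists carry no replicate. Without read depth, a peak absent from a list was not detectable at that list's threshold, and its absence is not shown.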
